A study of Mus musculus with 16 samples.

Results

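A set of 10 amino acid transporter genes was followed in pancreatic islets of adult mice meant to lose Ins2 on a background without Ins1, out of 10208 genes with a value. They were Slc3a2, Slc7a5, Slc7a11, Slc7a1, Slc7a2, Slc1a4, Slc1a5, Slc38a2, Slc6a9 and Slc38a5, chosen by name as plasma membrane carriers of the SLC1, SLC3, SLC6, SLC7 and SLC38 families. Each of the 10 had 1 row of the authors' deposited table. The rule uses no measured value, although the list was drawn up with earlier results of these data known.

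The samples were islets labelled Cre+T (7 samples) and islets labelled Cre-T (9 samples), all isolated 6 days after tamoxifen. Every sample carried the same genotype label, Ins1-/-:Ins2f/f:Pdx1CreERT:mTmG, on a mixed background that was mostly C57Bl/6. The controls therefore also lacked Ins1, held the floxed Ins2 and received tamoxifen. Whether Cre-T mice lacked the CreERT transgene that their genotype string names is not stated in the labels. Pdx1 regulatory sequence drives this tamoxifen-dependent recombinase, so deletion was aimed at cells that use that sequence. The mTmG allele is a fluorescent reporter of recombination. Whether 1 sample stands for 1 animal is not labelled, so the p-values rest on the spread among samples, which may in part be technical.

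No values per sample were analysed here. The authors' deposited table gives, for each gene, a log2 fold change, a mean over samples and a limma test. The mean was read as log2 CPM, a read count scaled by the size of its library. Each fold change sets Cre+T over Cre-T. The header names no direction, and this one was read from the signs of Ins2 (-0.47 ± 0.17) and of Esr1 (9.30 ± 0.39), whose sequence is part of CreERT, so neither value is a test of the deletion. Read so, Esr1 was estimated at 600 CPM in Cre+T and 0.95 CPM in Cre-T. The groups thus differed in RNA of that sequence as well as in Ins2, and its part in the other values was not tested. Errors are standard errors (SE), derived as the fold change divided by its moderated t, and intervals are 95% intervals at 16.1 degrees of freedom. Depth per sample is unknown beyond the 20000000 read pairs that the labels state. Per the authors' deposited table, Ins2 averaged 16.34, Gcg 14.13 and Sst 11.30 log2 CPM, so markers of beta, alpha and delta cells were present. Acinar enzyme genes were also abundant, up to 12.51 log2 CPM for Ctrb1 per the authors' deposited table. All 13 acinar markers with a row, of 15 listed, were higher in Cre+T per the authors' deposited table. Their summed level was estimated at 40315.2 CPM in Cre+T and 8880.1 CPM in Cre-T. Of red cell markers 3 of the 4 with a row (5 listed) were higher, at a summed level of 172.6 CPM in Cre+T and 17.3 CPM in Cre-T. Of leukocyte markers 2 of the 5 with a row (8 listed) were higher, at 176.9 CPM in Cre+T and 92.0 CPM in Cre-T. Of 10 beta-cell markers, 6 were higher and 1, Ins2, was lower. These counts are at a limma adjusted p under 0.05, by which 17.6% of all rows were higher and 20.1% were lower.

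Cells take up amino acids through carriers that differ in substrate and in what they exchange or cotransport. Slc3a2 encodes the heavy chain (4F2hc, CD98) that brings several SLC7 light chains to the plasma membrane. Sodium-coupled carriers of the SLC1, SLC6 and SLC38 families load the cell with neutral amino acids, and exchangers such as the one built by Slc3a2 and Slc7a5 trade glutamine for leucine and other large neutral amino acids. Many of these genes are known targets of ATF4, a transcription factor whose translation increases when eIF2-alpha is phosphorylated during amino acid shortage or stress of the endoplasmic reticulum. ATF4 binds, with C/EBP proteins, a composite element also called the amino acid response element. Beta cells carry a heavy load of protein synthesis, and arginine and leucine are known to stimulate insulin secretion.

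Promoter sequence is given first for the members whose window held that element, since ATF4 is the regulator named above. RefSeq windows from 250 bases before to 50 bases after the annotated start were at hand for 7 of the 10 genes (10 windows on GRCm38.p6); Slc7a5, Slc7a2 and Slc1a5 had none. The letters TGATGNAA were searched on both strands. They occurred in 2 of the 10 windows, those of Slc7a11 and Slc1a4, beside 1304 of 32851 mouse promoter windows (3.97%). Counted by gene, they occurred in 2 of the 7 members and in 1219 of 27025 genes with a window (4.51%). Many of the members are known ATF4 targets, so a raised share of these letters may follow from the choice of genes. Slc7a11 held them once on each strand, and only 23 of all windows (0.07%) held more than 1 match. The stretches run from 150 bases before to 30 bases after the RefSeq start, written 5′ to 3′ in the direction of each gene, which is the minus strand for both, with the matches in capitals. That of Slc7a11 lies at chr3:50443584-50443763 and that of Slc1a4 at chr11:20332684-20332863 (GRCm38.p6).
Slc7a11: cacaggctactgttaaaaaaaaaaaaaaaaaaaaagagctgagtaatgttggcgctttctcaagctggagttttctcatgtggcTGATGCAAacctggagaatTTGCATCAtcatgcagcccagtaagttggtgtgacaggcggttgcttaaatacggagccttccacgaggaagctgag
Slc1a4: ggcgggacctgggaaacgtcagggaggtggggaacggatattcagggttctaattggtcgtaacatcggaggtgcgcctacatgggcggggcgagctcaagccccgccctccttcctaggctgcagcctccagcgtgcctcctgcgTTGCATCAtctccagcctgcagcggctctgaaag
In Slc7a11 the matches covered positions -66 to -59 and -47 to -40 from the start, on opposite strands. In Slc1a4 the single match, on the opposite strand, spanned the start from -4 to 4. A match is a description of letters and not of binding, and no match in the other windows says only that these letters are not in that window.

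The letters TGACNNNGC, the core of the antioxidant response element, were searched in the same way because Slc7a11 is also a known target of NRF2, a factor that binds this element. They occurred in 4 of the 10 windows, beside 4071 of the 32851 (12.4%). Counted by gene, they occurred in 3 of the 7 members, Slc6a9, Slc7a1 and Slc38a2, and in 3781 of 27025 genes (14.0%). Neither the Slc7a11 window nor the Slc1a4 window held them. For comparison with the stretches above, that of Slc7a1, at chr5:148399875-148400054 on the minus strand (GRCm38.p6), is shown with its match to the antioxidant core in capitals.
Slc7a1: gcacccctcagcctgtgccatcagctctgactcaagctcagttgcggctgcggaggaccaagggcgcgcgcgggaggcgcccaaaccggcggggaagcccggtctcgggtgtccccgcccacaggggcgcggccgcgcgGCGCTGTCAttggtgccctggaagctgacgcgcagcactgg
The match in Slc7a1 lay on the opposite strand at positions -11 to -3. The pair of windows at other starts, 1 of the 2 of Slc7a1 and 1 of the 3 of Slc6a9, held neither motif, nor did those of Slc3a2 and Slc38a5. The last bases of the Slc3a2 window, after its start, did not match any GENCODE transcript of that gene in full, unlike those of every other window.

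Most of these transporter genes were expressed at a lower level in Cre+T islets. Of the 10 genes, 6 fell (Slc3a2, Slc7a5, Slc7a11, Slc7a1, Slc1a4 and Slc6a9), none rose and 4 did not pass at a limma adjusted p under 0.05 per the authors' deposited table. The background is high, since 20.1% of all rows were lower and 17.6% were higher by the same rule. At an unadjusted limma p under 0.05, 6 were lower and 1 was higher. Their median log2 fold change was -0.42, beside -0.003 over all rows of the authors' deposited table. Summed over the 10 genes, the estimated level was 1205.7 CPM in Cre+T and 1534.3 CPM in Cre-T. In a bulk sample, fewer cells of a type and less RNA per cell cannot be told apart.

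**Figure D1:**
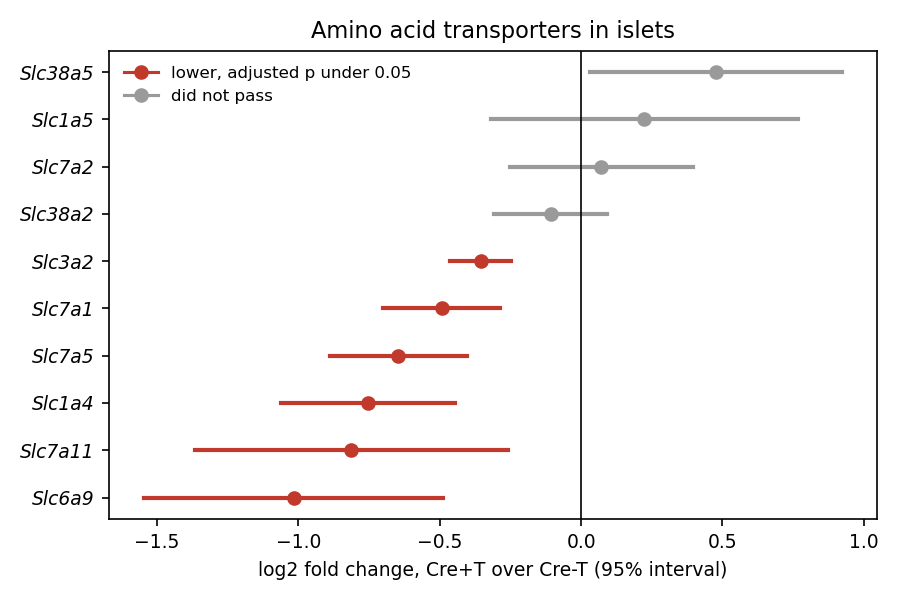
Log2 fold change of each transporter gene, Cre+T over Cre-T (x axis), with the 95% interval as a bar; red marks genes lower at a limma adjusted p under 0.05 and grey marks those that did not pass. The 6 red genes lie between -1.02 and -0.35, and the 4 grey ones between -0.11 and 0.48.

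The light and heavy chain of the leucine exchanger both fell. Slc3a2 (ENSMUSG00000010095.8), the heavy chain, lies on chromosome 19 from 8706882 to 8723369 on the minus strand in GENCODE release M21 (GRCm38). Its level, estimated from the mean and fold change of the authors' deposited table, was 316 CPM in Cre+T and 405 CPM in Cre-T. The log2 fold change was -0.35 ± 0.05 per the authors' deposited table, the smallest of the 6 falls but the one with the smallest limma adjusted p (3.0e-04) and the smallest error. Slc7a5 (ENSMUSG00000040010.10), the light chain LAT1, lies on chromosome 8 from 121881150 to 121907694. Slc7a5 was estimated at 284 CPM in Cre+T and 444 CPM in Cre-T. Its log2 fold change was -0.65 ± 0.11, or 0.639 of the Cre-T level with an interval of 0.54 to 0.756, at a limma adjusted p of 0.001 per the authors' deposited table. Both genes ranked above 97.4% of all rows in mean expression. Whether the light chain fell more than the heavy chain was not tested, because the 2 values share samples and their covariance is not held by the authors' deposited table.

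Slc7a11, the light chain xCT that exchanges cystine for glutamate and also pairs with Slc3a2, was a low gene. Slc7a11 (ENSMUSG00000027737.5, chromosome 3 from 49892526 to 50443614, minus strand) was estimated at 10.7 CPM in Cre+T and 18.7 CPM in Cre-T. It fell by 0.81 log2 units with an SE of 0.26 per the authors' deposited table (limma adjusted p = 0.024). This was the widest error among the 10 genes, and the fold of 0.569 had an interval of 0.388 to 0.836. This is also the gene whose promoter window held a pair of TGATGNAA matches.

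A pair of other SLC7 light chains of the same heavy chain had a row in a list of further carriers, mostly of the plasma membrane. Their differences from Slc7a5 and Slc7a11 were not tested. Slc7a6, the light chain y+LAT2, fell by 0.25 log2 units with an SE of 0.07 (limma adjusted p = 0.012 per the authors' deposited table). Slc7a8, the light chain LAT2, was at -0.14 ± 0.11 and did not pass (limma adjusted p = 0.34 per the authors' deposited table), with an interval of -0.38 to 0.10. Its level was estimated at 175 CPM in Cre+T and 194 CPM in Cre-T. Slc7a7 and Slc7a10 had no row and were not analysed here.

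The cationic amino acid carriers, which bring in arginine, lysine and ornithine, split. Slc7a1 (CAT-1; ENSMUSG00000041313.9) lies on chromosome 5 from 148327410 to 148399904 on the minus strand. Slc7a1 was estimated at 101 CPM in Cre+T and 143 CPM in Cre-T, with a log2 fold change of -0.49 ± 0.10 (limma adjusted p = 0.0021) per the authors' deposited table. Slc7a2 (CAT-2; ENSMUSG00000031596.10, chromosome 8 from 40862396 to 40922308, plus strand) was estimated at 219 CPM in Cre+T and 209 CPM in Cre-T. At 0.07 ± 0.15 log2 units (limma adjusted p = 0.73 per the authors' deposited table) it did not pass, and its interval of -0.25 to 0.40 does not reach the fall of Slc7a1. Slc7a3, the third carrier of the group and a gene of the further list, was estimated at 6.16 CPM in Cre+T and 26.6 CPM in Cre-T. It fell by 2.11 log2 units with an SE of 0.40 (limma adjusted p = 0.0016 per the authors' deposited table), and only 0.17% of rows had a lower fold change. Slc7a4, a related protein of the family, was at -0.14 ± 0.07 and did not pass (limma adjusted p = 0.12 per the authors' deposited table). The differences between these carriers were not tested.

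The SLC1 pair of neutral amino acid exchangers also split. Slc1a4 (ASCT1; ENSMUSG00000020142.7), which carries serine, alanine and cysteine, lies on chromosome 11 from 20302180 to 20332713 on the minus strand. Slc1a4 was estimated at 34.1 CPM in Cre+T and 57.5 CPM in Cre-T, with a log2 fold change of -0.75 ± 0.15 (limma adjusted p = 0.0018) per the authors' deposited table. Slc1a5 (ASCT2; ENSMUSG00000001918.12, chromosome 7 from 16781340 to 16798274), the glutamine exchanger, was estimated at 21.4 CPM in Cre+T and 18.3 CPM in Cre-T. It did not pass, at 0.22 ± 0.26 log2 units with an interval of -0.32 to 0.77 (limma adjusted p = 0.51 per the authors' deposited table). That interval does not include the value of Slc1a4, but it is wide enough to hold a rise or a fall of over 0.3 log2 units. The difference between Slc1a4 and Slc1a5 was not tested.

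Slc6a9 (GlyT1; ENSMUSG00000028542.12), the sodium- and chloride-coupled glycine transporter on chromosome 4 from 117834506 to 117875198, had the largest fall of the 10 genes. Slc6a9 was estimated at 9.23 CPM in Cre+T and 18.7 CPM in Cre-T. Its log2 fold change was -1.02 ± 0.25, or 0.494 of the Cre-T level with an interval of 0.343 to 0.713, at a limma adjusted p of 0.0065 per the authors' deposited table. Only 1.36% of all rows had a lower fold change. Within the same family, the taurine transporter gene Slc6a6 rose by 0.51 ± 0.11 (limma adjusted p = 0.0028 per the authors' deposited table), estimated at 387 CPM in Cre+T and 273 CPM in Cre-T. Slc6a17 (0.03 ± 0.19) and Slc6a19 (0.15 ± 0.15) did not pass per the authors' deposited table.

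Neither SLC38 member passed. Slc38a2 (SNAT2; ENSMUSG00000022462.6, chromosome 15 from 96687392 to 96699730, minus strand), the sodium-coupled carrier known for its induction by amino acid starvation, was estimated at 196 CPM in Cre+T and 211 CPM in Cre-T. Its log2 fold change of -0.11 ± 0.09 (limma adjusted p = 0.38 per the authors' deposited table) had an interval of -0.31 to 0.09. The estimates of Slc7a1 and Slc7a5 lay outside it, but the interval of Slc7a1, -0.70 to -0.29, overlapped it. The differences of Slc38a2 from Slc7a1 and Slc7a5 were not tested. Slc38a5 (SNAT5; ENSMUSG00000031170.9) lies on the X chromosome from 8271133 to 8280179 and encodes a carrier of glutamine, asparagine and glycine. It is known in mice for its induction in alpha cells when glucagon signalling is blocked. Slc38a5 was estimated at 13.6 CPM in Cre+T and 9.75 CPM in Cre-T, a log2 fold change of 0.48 ± 0.21 per the authors' deposited table. Its unadjusted limma p was 0.038 and its adjusted p 0.084, so it was not called per the authors' deposited table. Of the 6 alpha-cell markers with a row, none was higher and 1 was lower, beside 17.6% higher and 20.1% lower of all rows. Gcg was at -0.24 with a limma adjusted p of 0.53 per the authors' deposited table. At an unadjusted limma p under 0.05 none of those 6 was higher per the authors' deposited table. Acinar markers rose in the same comparison, with a median of 2.54 log2 units per the authors' deposited table, and their part in this value was not tested.

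**Figure D2:**
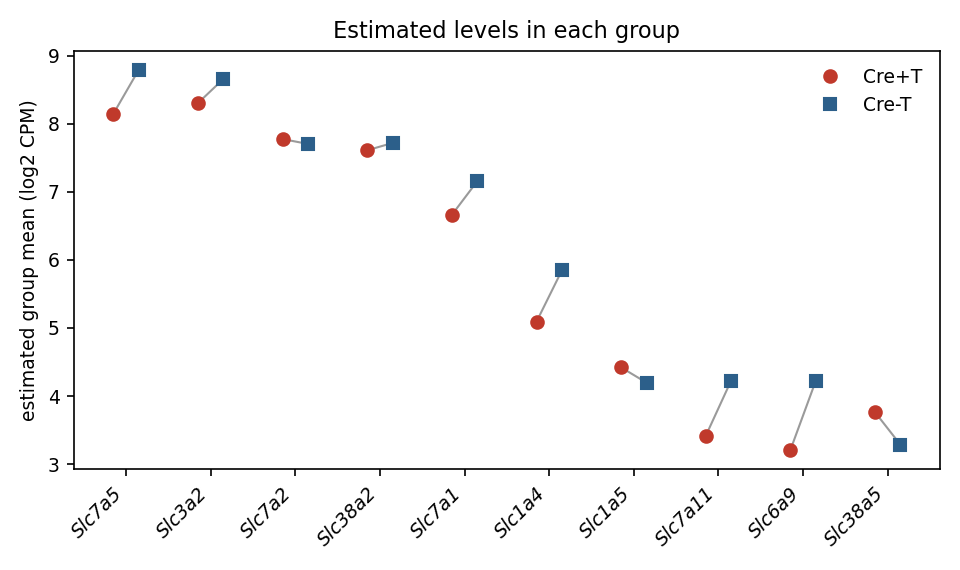
Estimated group mean of each transporter gene on the log2 CPM scale (y axis), with red circles for Cre+T and blue squares for Cre-T joined by a line; genes run from the highest to the lowest mean. Slc7a5 and Slc3a2 are the highest in both groups, and Slc6a9 and Slc7a11 stand below 3.5 in Cre+T and above 4.2 in Cre-T.

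Set per kilobase of the longest annotated transcript, the leucine exchanger genes had the highest levels. Over all samples the order of levels was Slc3a2 (129 CPM per kb), Slc7a5 (104), Slc38a2 (33.4), Slc7a2 (27.0), Slc7a1 (17.1), Slc1a4 (11.7), Slc1a5 (6.99), Slc38a5 (5.68), Slc6a9 (3.94) and Slc7a11 (1.59), from the means of the authors' deposited table. The spread of a level over samples is not held by the authors' deposited table, so whether neighbours in this order differ beyond it cannot be said. Slc3a2 was estimated at 113 CPM per kb in Cre+T and 144 CPM per kb in Cre-T, and Slc7a5 at 80.7 CPM per kb in Cre+T and 126 CPM per kb in Cre-T. Slc3a2 and Slc7a5 were the most abundant of the 10 per kb in both groups, and Slc7a11 the least. Slc6a9 was estimated at 2.65 CPM per kb in Cre+T, below Slc38a5 (6.84), and at 5.37 CPM per kb in Cre-T, above Slc38a5 (4.92). The falls were not confined to 1 end of the expression range.

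**Figure D3:**
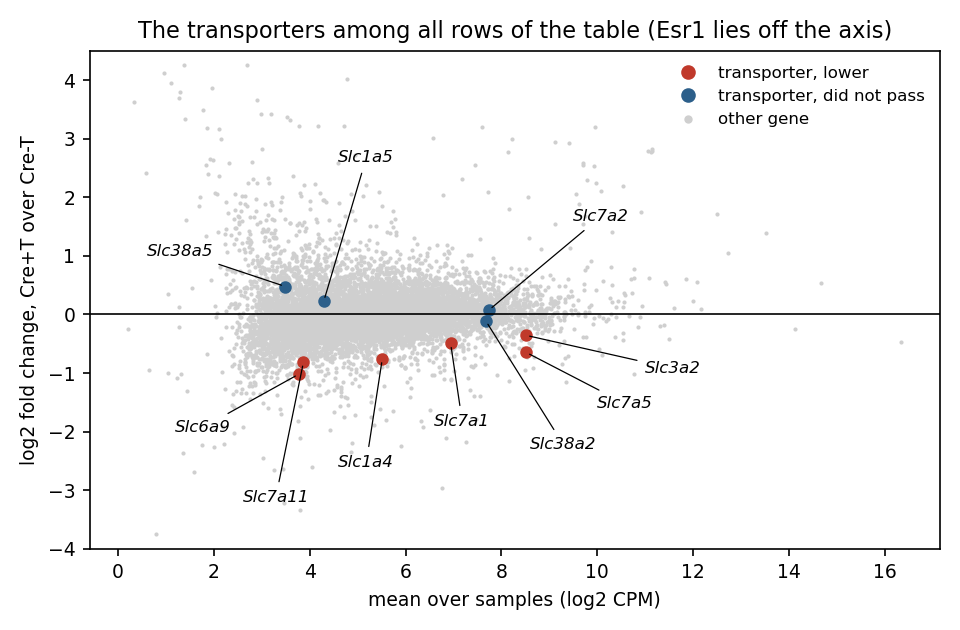
Mean over samples in log2 CPM (x axis) against log2 fold change, Cre+T over Cre-T (y axis), for all rows but Esr1, in grey, with transporters that fell in red and those that did not pass in blue. The red genes span means of 3.78 to 8.51 log2 CPM, and Slc7a2 and Slc38a2, at means near 7.7, lie close to 0.

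Other amino acid carriers, most of them of the plasma membrane and so named here, moved both ways, and no test compared the lists. Of 38 listed, 14 had a row, of which 3 rose (21.4%), 2 fell (14.3%) and 9 did not pass per the authors' deposited table. These shares were near those of all rows, 17.6% higher and 20.1% lower. The median log2 fold change was 0.06. Beside Slc6a6, the risers were Slc38a6 (0.56 ± 0.14, limma adjusted p = 0.0073) and Slc38a3 (1.38 ± 0.41, limma adjusted p = 0.016) per the authors' deposited table. Slc38a3, the glutamine carrier SNAT3, was estimated at 8.08 CPM in Cre+T and 3.11 CPM in Cre-T, the lowest mean of the list. Slc7a3 and Slc7a6 were the 2 that fell. The most abundant genes of this list, Slc38a4 (0.11 ± 0.13) and Slc38a10 (-0.19 ± 0.08), did not pass per the authors' deposited table; they were picked for their level. The acinar rise given above ran in the same comparison, and its part in the rises of Slc6a6, Slc38a6 and Slc38a3 was not tested.

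Carriers of lysosomes and vesicles included 3 falls. Of 14 listed, 7 had a row, of which 3 fell, 1 rose and 3 did not pass per the authors' deposited table (median -0.01). That is 42.9% lower and 14.3% higher, beside 20.1% and 17.6% of all rows. Slc38a7, which is known to export glutamine from lysosomes, was estimated at 15.1 CPM in Cre+T and 32.0 CPM in Cre-T. It fell by 1.08 log2 units with an SE of 0.13 (limma adjusted p = 1.4e-04 per the authors' deposited table). The lysosomal exporter genes of cationic amino acids, Pqlc2 (-0.64 ± 0.15, limma adjusted p = 0.0049), and of cystine, Ctns (-0.55 ± 0.08, limma adjusted p = 4.2e-04), fell as well per the authors' deposited table. Slc36a4 rose by 0.43 ± 0.16 (limma adjusted p = 0.044 per the authors' deposited table), a call lost under 3 of the 5 other scalings. Its paralogue Slc36a1 was at -0.01 ± 0.09 (limma adjusted p = 0.93 per the authors' deposited table).

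The non-transporter genes of the amino acid response, most of them known ATF4 targets, were mostly lower in the same comparison. Of 34 listed, 30 had a row, of which 24 fell, 1 rose and 5 did not pass per the authors' deposited table, with a median of -0.74. That is 80.0% lower and 3.3% higher, beside 20.1% and 17.6% of all rows. The 6 with the smallest p were Trib3 (-1.82 ± 0.19), Sesn2 (-0.75 ± 0.10), the seryl-tRNA synthetase gene Sars (-0.71 ± 0.10), the serine synthesis gene Psph (-1.89 ± 0.26), the alanyl-tRNA synthetase gene Aars (-0.57 ± 0.08) and the proline synthesis gene Pycr1 (-1.76 ± 0.25) per the authors' deposited table. For these 6 the limma adjusted p ran between 3.7e-05 and 3.1e-04 per the authors' deposited table. The 1 that rose, named after its value was seen, was Eif2ak4, the amino acid sensing kinase GCN2, at 0.25 ± 0.09 and a limma adjusted p of 0.05 that lies just under the threshold per the authors' deposited table; it did not pass under 3 of the 5 other scalings of the values. Of the 30, 25 had a promoter window, and 7 of these held TGATGNAA (28.0%), beside 4.51% of all genes with a window. Most of the list are known ATF4 targets, so a raised share may follow from the choice of genes. Of those 7, 6 were among the genes that fell, and Nupr1 did not pass. Of all 25 with a window, 21 fell, a share near that of the 7 with the letters.

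The antioxidant core TGACNNNGC was also found in 7 of these 25 response genes (28.0%), beside 14.0% of all genes with a window. Among the other plasma membrane carriers with a row and a window, 0 of 9 held TGATGNAA and 1 of 9 held TGACNNNGC. Among the lysosomal and vesicular carriers, 0 of 6 held TGATGNAA and 1 of 6 held TGACNNNGC. The lists were drawn up with earlier results known, so these shares describe the lists and were not tested.

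Genes that pass the amino acid signal to the growth kinase mTORC1 moved mostly by small amounts. Of 31 listed, 27 had a row, of which 9 fell, 1 rose and 17 did not pass per the authors' deposited table, with a median of -0.11. That is 33.3% lower and 3.7% higher, beside 20.1% and 17.6% of all rows. The 6 with the smallest p were the leucyl-tRNA synthetase gene Lars (-0.86 ± 0.11), Flcn (-0.47 ± 0.10), which encodes folliculin, Sesn1 (0.34 ± 0.09), which encodes a sestrin, Lamtor1 (-0.33 ± 0.07), a subunit of the lysosomal Ragulator scaffold, and the GATOR1 genes Depdc5 (-0.48 ± 0.12) and Nprl2 (-0.36 ± 0.10), whose complex restrains mTORC1, per the authors' deposited table. For these 6 the limma adjusted p ran between 1.9e-04 and 0.012 per the authors' deposited table. Sesn1 was the 1 that rose, and it did not pass with summed expression set equal, where 16 genes of the list were lower. The other sestrin genes did not rise per the authors' deposited table. Sesn2, counted in the response list above, fell (-0.75 ± 0.10), and Sesn3 (-0.23 ± 0.15) did not pass.

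**Figure D4:**
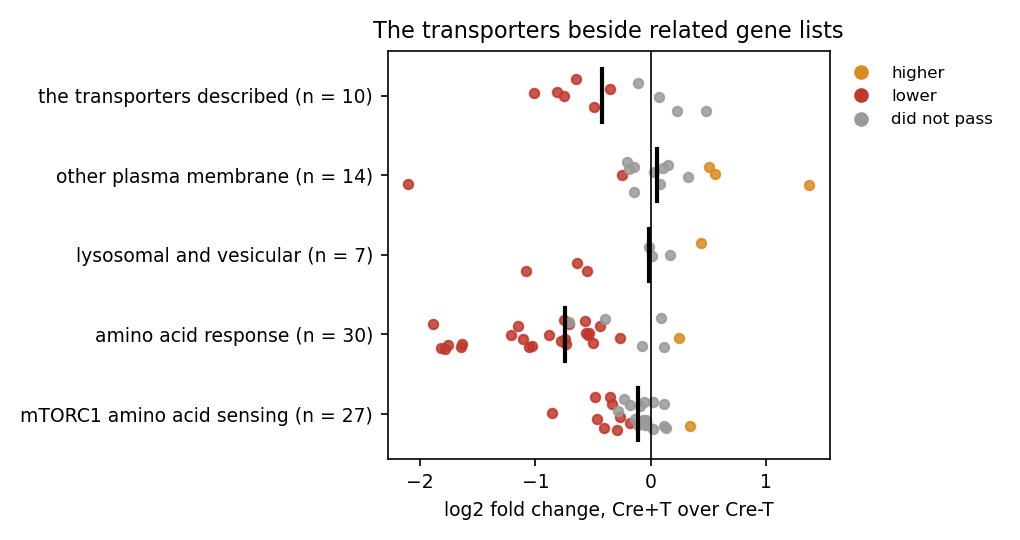
Log2 fold change, Cre+T over Cre-T (x axis), of each gene with a row in 5 lists, with orange for higher, red for lower, grey for genes that did not pass and a black bar at the median. The median is -0.42 for the 10 transporters, 0.06 for other plasma membrane carriers and -0.74 for the amino acid response genes.

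The falls were relative to the authors' scaling, and the count over all rows depended on it. The share of higher genes among all called rows was 46.7% as deposited, 17.9% with summed expression set equal, 30.4% with ribosomal protein genes centred on a median of 0, 36.4% with Ins2 left out of the total and 59.4% with acinar, red cell and leukocyte markers left out of it. These scalings changed every log2 fold change by -0.14, -0.07, -0.04 and 0.05, and centring on the median of all rows by 0.003. The 6 transporter genes that fell, Slc3a2, Slc7a5, Slc7a11, Slc7a1, Slc1a4 and Slc6a9, kept their sign and their call under all 5. Their signs could not change, since no scaling raised a fold change by more than 0.05 and the smallest fall was -0.35. The kept signs are therefore no test of these falls. Slc38a2 passed as lower with summed expression set equal (-0.25, adjusted p = 0.039), and Slc7a2 then changed sign, to -0.0705, without passing.

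**Figure D5:**
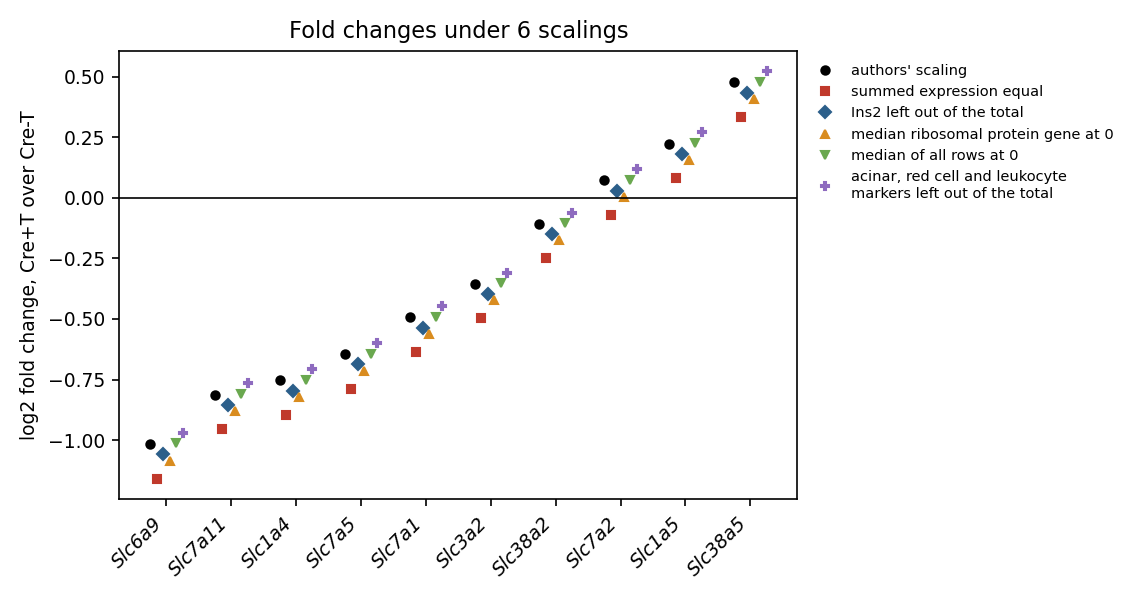
Log2 fold change, Cre+T over Cre-T (y axis), of each transporter gene under the authors' scaling and 5 others, 1 marker each. The 6 genes on the left stay below 0 under every scaling shown, nearest to it at -0.31 for Slc3a2, and Slc7a2 is the gene whose markers lie on both sides of 0.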

How the data were processed

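Total RNA of islets from 16 samples (7 Cre+T, 9 Cre-T) was made into libraries with an Illumina TruSeq kit and read as 150 bp pairs, per the labels' protocols. TopHat2, limma and GRCm38 are named in the submitters' processing notes. Not given in the sources used here are versions, counting, filters and which samples were fitted. The deposited results table is named as voom and limma output and holds log2 fold changes, a mean read as log2 CPM, a moderated t score, a log-odds score, p-values, adjusted p-values and q-values, per the file headers. Adjusted p equalled the Benjamini-Hochberg value over its 10208 rows.

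No new fit was possible. SE, intervals and group means (from 7 and 9 samples) were derived from these columns with scipy 1.17.1 in Python 3.11.15. Simulated data tested only the rescaling of fold changes and the calls after it, and not the SE, intervals or group means. Group means are approximate, since voom weights samples. Coordinates and transcript lengths are from GENCODE release M21 (10190 rows matched, 18 not) and promoters from RefSeq. Genes were called at adjusted p under 0.05. Named were all 10 members, every called gene of the carrier lists and the 6 smallest p of the other lists; others were chosen after their values were seen. Members and lists were chosen with earlier results of these data known. Alternatives were other thresholds, expression filters, adjustments and scalings, of which the marker scaling was added after the data were seen.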

Additional observations from a re-analysis of the deposited data

How the results depend on the processing

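The 6 falls among the 10 transporter genes numbered 4 to 7 under 11 of the 12 other settings, and 1 (Slc3a2) under Holm adjustment; the 4 came from a minimum size of 0.5 log2 units and from means at or above the median, the second of which tests fewer genes. The count of rises was 1 (Slc38a5) with adjusted p under 0.1 and with the authors' q-value, and 0 elsewhere. The 5 calls among other plasma membrane carriers became 3 at adjusted p under 0.01, 1 with means at or above the median, 0 with Holm adjustment and 8 with summed expression set equal. The 25 calls among amino acid response genes became 6 with Holm adjustment, which is stricter by construction. The 4 calls among lysosomal and vesicular carriers (3 of them falls) became 1, a rise, with means at or above the median and 1, a fall, with Holm adjustment. The 10 calls among mTORC1 genes became 5 at adjusted p under 0.01, 6 with means at or above the median, 1 with Holm adjustment, 1 with a minimum size of 0.5 and 16 with summed expression set equal; these 2 lists were added to the alternatives after the data were seen. Slc7a2 reversed to -0.0705 with summed expression set equal, and Slc38a2 reached -0.25 and passed. Of 50 fold changes of the 10 genes under 5 scalings, the other 48 kept sign and call. No scaling raised a fold change by more than 0.05, so the signs of the 6 falls could not change. No paired analysis was possible because the deposited table has no values per sample and the labels give no replicate numbers. For the same reason no sample could be left out, and no value could be had within the leading numbers of the sample titles, which the labels do not explain and most of which hold 1 group only. Depth per sample is unknown, so the precision of low genes such as Slc7a11 rests on the SE alone.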
